A study of Mus musculus with 6 samples.

Results

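The 9 genes described here belong to the TRAF and TBK1 signalling group and were measured in mouse L929 cells. They are the TRAF genes Traf1, Traf3, Traf4, Traf5, Traf6 and Traf7, the scaffold gene Tank, and the kinase genes Tbk1 and Ikbke. They were chosen by gene name, and all 9 were found once each among the 54532 genes of the deposited count table and passed the filter on low counts. RNA sequencing compared 3 libraries of cells exposed for 12 hours to 10 ng/ml TNF-α together with 1 µg/ml actinomycin D against 3 libraries of control cells, all of the L929 line, labelled as genotype WT and grown in DMEM with fetal bovine serum. L929 is a clonal fibroblast line from mouse connective tissue that is much used to study killing by TNF, an inflammatory cytokine, and actinomycin D is a drug that blocks transcription. The labels repeat the treatment text on the control samples, so the groups follow the sample titles and the treatment label. Neither agent was given alone in these samples, so the effects of the 2 agents cannot be told apart. The labels leave unsaid whether replicates are separate cultures, so p-values measure only a spread among libraries that may be technical.

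TRAF proteins are adaptors that bind the tails of TNF receptor family members and of Toll-like and interleukin-1 receptor complexes, and most of them also act as RING ubiquitin ligases that pass the signal on to NF-κB and MAP kinases. TRAF3 and TANK additionally connect receptors and nucleic acid sensors to the sister kinases TBK1 and IKKε (the product of Ikbke), which phosphorylate interferon regulatory factors. TBK1 and IKKε are also known to act at the TNF receptor complex, where they restrain the kinase RIPK1.

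The genes differ in the sequence just before their transcription start. Stretches of 140 bases that end at the last base before the RefSeq start (build GRCm38.p6) are shown for the gene that fell most (Tbk1), for the gene that rose on the scale used here (Traf7), and for the pair of genes with a match to the κB consensus, the binding motif of NF-κB (Traf3 and Tank). Capitals mark matches to a searched motif that lie wholly in the stretch, which are the κB consensus in Traf3 and Tank and CGGAAG, the core of ETS factor motifs, in Traf7. The stretches are chr10:121586795-121586934 on the minus strand for Tbk1, chr17:24527939-24528078 on the minus strand for Traf7, chr12:111166230-111166369 on the plus strand for Traf3 and chr2:61592957-61593096 on the plus strand for Tank, the last taken from 1 of its 4 annotated starts.
Tbk1: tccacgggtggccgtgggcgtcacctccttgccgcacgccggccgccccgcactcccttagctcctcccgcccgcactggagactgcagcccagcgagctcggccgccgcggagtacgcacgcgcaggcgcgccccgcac
Traf7: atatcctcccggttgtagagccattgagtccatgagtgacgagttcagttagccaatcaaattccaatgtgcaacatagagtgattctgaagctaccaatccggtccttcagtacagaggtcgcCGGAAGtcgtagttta
Traf3: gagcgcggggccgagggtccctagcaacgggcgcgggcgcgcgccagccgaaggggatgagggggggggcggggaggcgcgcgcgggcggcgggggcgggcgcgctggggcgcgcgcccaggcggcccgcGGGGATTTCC
Tank: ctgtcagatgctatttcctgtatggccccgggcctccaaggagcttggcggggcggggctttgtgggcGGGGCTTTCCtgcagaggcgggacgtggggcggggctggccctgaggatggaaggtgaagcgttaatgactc
All 9 genes had an entry among 32851 RefSeq promoter windows of 300 bases, 12 windows in all, since Tank has several starts. On either strand a κB consensus was found in 4.51% of all windows, TGACTCA in 5.2%, the interferon response element core (GAAA, any 2 bases, GAAA) in 3.44%, TATAAA in 13.6% and CGGAAG in 16.9%. Searched motifs that overlapped were each counted. The κB consensus was found in the windows of Traf3, where it starts 10 bases before the transcription start, and of Tank. Tank also held TGACTCA, which starts 6 bases before the start used above and runs past the end of the stretch. CGGAAG was found in the windows of Traf4, Traf6, Traf7, Tank and Tbk1, and TATAAA in the windows of the upstream Tank starts. The CGGAAG match lay past the start in Traf6 and Tbk1, and in Tank past the start used above. None of the 12 windows held the interferon response element core. The windows of Traf1, Traf5 and Ikbke held none of the 5 motifs, and this says only that those letters are not in these windows. GC content ran from 34.7% in a Tank window to 84.0% in that of Traf3, against a median of 52.7% over all windows.

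Among the 9 genes, 6 fell (Tbk1, Traf5, Traf4, Traf6, Tank and Traf3) and Traf7 rose, where the direction of Traf3 turned with an offset for gene length and that of Traf7 by library size alone. Traf1 and Ikbke did not pass the test. The test was edgeR's quasi-likelihood test on counts with TMM scaling, which assumes that most genes are unchanged, at a Benjamini-Hochberg adjusted p of 0.05 over 13290 tested genes. Of all tested genes, 40.2% were lower and 34.6% higher by the same rule, 74.8% in either direction. Of the 6 that fell, 5 (all but Traf3) were also at least 2-fold lower, as were 33.1% of all tested genes. Values did not overlap between the groups for 7 of the 9 genes, against 77.9% of all tested genes. The median log2 fold change (treated over control) of the 9 genes was −1.40, and that of all tested genes was −0.18. The members and lists were picked with earlier results of these data known, so these shares are descriptions.

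**Figure D1:**
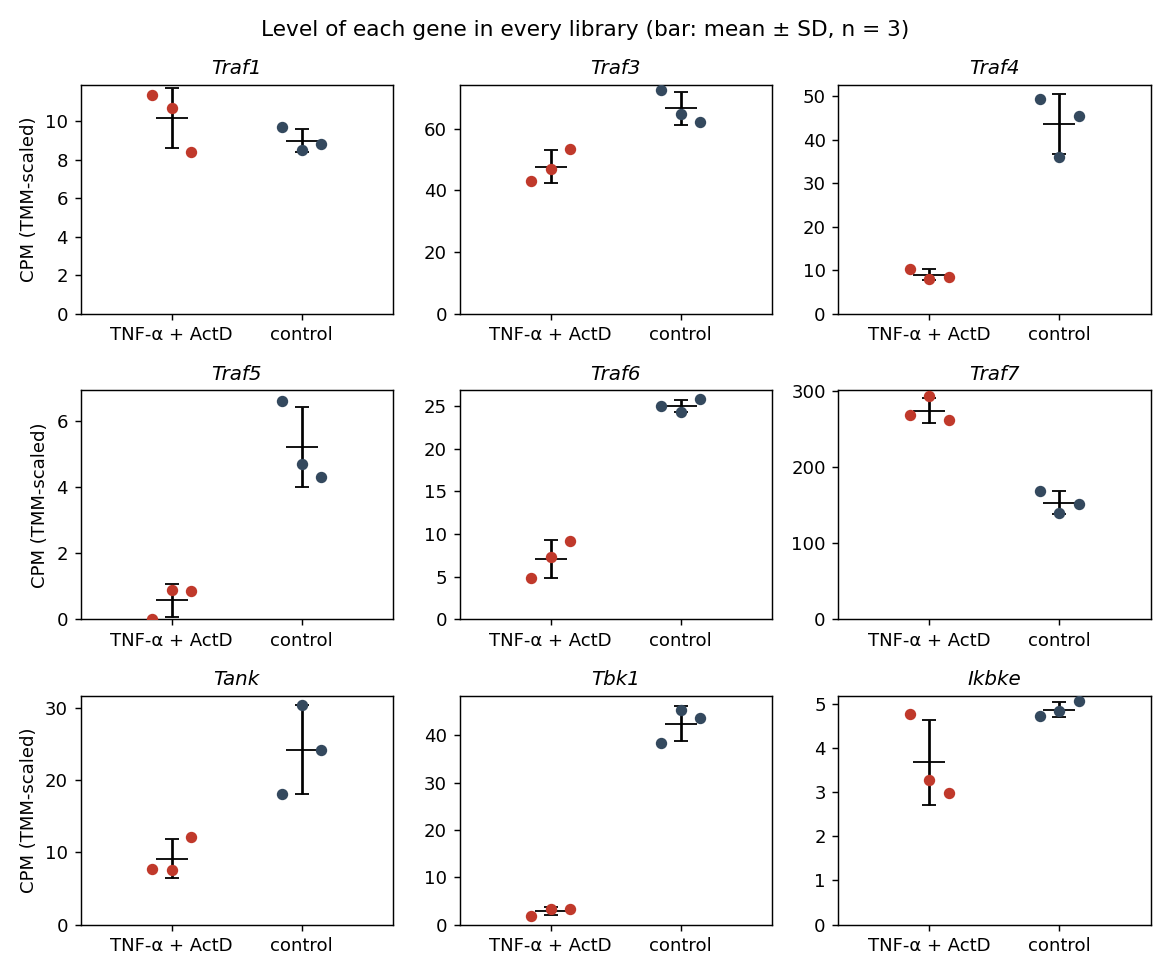
Level of each of the 9 genes in every library, in TMM-scaled CPM (library-scaled counts, linear axis from 0), in cells given TNF-α with actinomycin D (red, left) and control cells (dark, right). Bars give the mean ± SD of 3 libraries. Tbk1 lay between 1.85 and 3.36 CPM in treated libraries and between 38.4 and 45.4 CPM in controls, while treated and control points of Traf1 and Ikbke share a range.

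The kinase gene Tbk1 showed the deepest fall of the 9. It lies on chromosome 10 from 121546455 to 121586787 on the minus strand (GRCm38, as for all gene coordinates here). Treated replicates 1, 2 and 3 had 1.85, 3.36 and 3.28 CPM of Tbk1, against 38.4, 45.4 and 43.6 CPM in the control replicates. All treated libraries lay far below all controls, with 102 counts in the treated group and 3141 in the control group. The log2 fold change was −3.90 ± 0.25 (SE; edgeR adjusted p = 5.52e-07), or 14.9-fold lower, and only 2.12% of tested genes had a change as low or lower.

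Ikbke, the gene of the sister kinase IKKε, did not follow Tbk1. It is on chromosome 1 from 131254343 to 131279606 on the minus strand. It was at 4.77, 3.27 and 2.98 CPM in the treated libraries, against 4.72, 4.82 and 5.06 CPM in controls. Treated replicate 1 lay within the control range and the other two lay below it. The change of −0.41 ± 0.28 did not pass (edgeR adjusted p = 0.212). Without treated replicate 1 it was −0.73 and was called lower. By library size alone it was −1.47 and called lower, as were 59.6% of all tested genes. It was also called lower with ribosomal protein genes (−2.78) or mitochondrial transcripts (−2.54) set equal between groups, as were 81.4% and 77.8% of all tested genes. With an offset for gene length the change was 0.64 and not called.

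The ratio between both kinase mRNAs within a library does not depend on the scaling factor. The log2 ratio of Ikbke to Tbk1 counts was 1.32, −0.04 and −0.14 in treated libraries, against −3.01, −3.22 and −3.10 in controls. The groups did not overlap, and the mean difference was 3.49 (exact two-sided permutation p = 0.1, the smallest that 3 against 3 allow; 0.117 after Benjamini-Hochberg adjustment over 7 gene pairs). Per base of deposited gene length, the ratio of Tbk1 to Ikbke was 0.897, 2.37 and 2.54 in treated libraries, and 18.8, 21.7 and 19.9 in controls. The deposited length of Ikbke is 2.77 times that of the annotated transcript with its longest coding sequence, against 1.29 times for Tbk1. With those transcript lengths the ratios of Tbk1 to Ikbke were 0.418, 1.10 and 1.19 in treated libraries and 8.75, 10.1 and 9.26 in controls.

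Tank, whose product binds TRAFs and holds TBK1 and IKKε in signalling complexes, fell less than Tbk1. The gene is on chromosome 2 from 61578585 to 61654171 on the plus strand. It had 7.68, 7.60 and 12.2 CPM in treated libraries, against 18.1, 30.5 and 24.1 CPM in controls. The groups did not overlap, and the controls were spread more widely than the treated libraries. The log2 fold change was −1.40 ± 0.27 (edgeR adjusted p = 0.000637), and the call was lost with an offset for gene length (−0.63) but not with that offset and a replicate block (−0.61). Relative to Tbk1 in the same library, the log2 ratio averaged 1.68 ± 0.45 in treated libraries and −0.84 ± 0.26 in controls (SD, n = 3 each), a difference of 2.51 with an exact permutation p of 0.1.

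Among the TRAF genes, Traf3 moved least of those called. TRAF3 restrains the alternative NF-κB pathway by directing destruction of the kinase NIK, and it also takes part in the interferon response. The gene is on chromosome 12 from 111166370 to 111267153 on the plus strand. Its level was 42.9, 46.8 and 53.3 CPM in treated libraries, against 72.6, 64.8 and 62.2 CPM in controls. The groups did not overlap, by a gap smaller than the spread within either of them. The log2 fold change of −0.48 ± 0.16 passed with TMM factors (edgeR adjusted p = 0.016), did not pass with upper-quartile factors (−0.32) or with protein-coding genes only (−0.35), and turned to 0.45, called higher, with an offset for gene length.

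Traf6, whose product is the ubiquitin ligase of the Toll-like and interleukin-1 receptor pathways, fell more clearly. It is on chromosome 2 from 101678429 to 101701669 on the plus strand. It had 4.77, 7.34 and 9.16 CPM in treated libraries, against 25.0, 24.3 and 25.8 CPM in controls. Controls were nearly even and every treated library lay far below them, with a log2 fold change of −1.81 ± 0.25 (edgeR adjusted p = 5.3e-05). The log2 ratio of Traf6 to Traf3 differed by −1.37 between treated and control libraries, with no overlap (exact permutation p = 0.1).

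Traf5, a close relative of Traf3 that serves lymphotoxin β receptor, CD40 and other TNF family receptors, was close to undetected after treatment. The gene is on chromosome 1 from 191997205 to 192092559 on the minus strand. It had 0, 10 and 11 counts in treated libraries, against 159, 115 and 109 counts in controls. That is 0 to 0.884 CPM in treated libraries and 4.31 to 6.58 CPM in controls. The log2 fold change was −3.14 ± 0.62 (edgeR adjusted p = 0.000939), and it was −2.66 without treated replicate 1, the library with no count. Pooled over libraries, the treated to control ratio was 0.113 (95% exact counting interval 0.0694 to 0.176, which covers counting error only). The log2 ratio of Traf5 to Traf3 differed by −3.10 between the groups, and by −2.04 without treated replicate 1. A processed pseudogene, Gstp-ps, lies within the span of Traf5 on the same strand with 2358 counts in treated and 902 in control libraries, and how such reads were divided in counting is unstated.

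Traf1, which lacks the RING ligase domain and is known as an NF-κB target that works together with TRAF2, had overlapping groups. It is on chromosome 2 from 34941750 to 34961772 on the minus strand. Treated libraries had 11.4, 10.7 and 8.40 CPM, against 9.69, 8.50 and 8.81 CPM in controls. Treated replicate 3 lay below all controls and the other treated libraries above them. The change of 0.17 ± 0.22 did not pass (edgeR adjusted p = 0.496). It was called higher, at 1.21, with an offset for gene length, and called lower, at −0.88, by library size alone. Traf1 and Traf5, at similar levels per kilobase in controls, parted after treatment: their log2 count ratio averaged 4.57 ± 2.13 in treated libraries and 0.81 ± 0.24 in controls. That difference of 3.76 was 2.53 without treated replicate 1.

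Traf4, an adaptor known more for development and cell polarity than for TNF receptor signalling, fell by 2.29 ± 0.20 on the log2 scale (edgeR adjusted p = 2.71e-06). It is on chromosome 11 from 78158499 to 78165589 on the minus strand. It had 10.3, 7.96 and 8.55 CPM in treated libraries, against 49.5, 36.1 and 45.4 CPM in controls. The gap between the groups was larger than the spread within either of them. The log2 ratio of Traf4 to Traf6 in the same library differed by −0.42 between the groups, which overlapped (exact permutation p = 0.4).

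Traf7 was the most abundant of the 9 in both groups and the one gene called higher with TMM factors, a direction that turns to −0.20 (not called) by library size alone, and to −1.48 when ribosomal protein genes or −1.33 when mitochondrial transcripts were set equal between groups (both called lower). TRAF7 has WD40 repeats in place of the TRAF domain and is known as a partner of the kinase MEKK3. The gene is on chromosome 17 from 24508562 to 24527938 on the minus strand. Its level was 268, 293 and 261 CPM in treated libraries, against 169, 139 and 151 CPM in controls. The groups did not overlap, and the log2 fold change was 0.84 ± 0.15 (edgeR adjusted p = 0.000314). Traf7 overlaps Caskin1 on the other strand, with 170 treated and 134 control counts, and Rab26 on the same strand, with 46 and 11, beside 9764 and 11299 counts of its own. The log2 ratio of Traf7 to Traf4 averaged 4.93 ± 0.25 in treated libraries and 1.82 ± 0.11 in controls (difference 3.12, exact permutation p = 0.1).

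**Figure D2:**
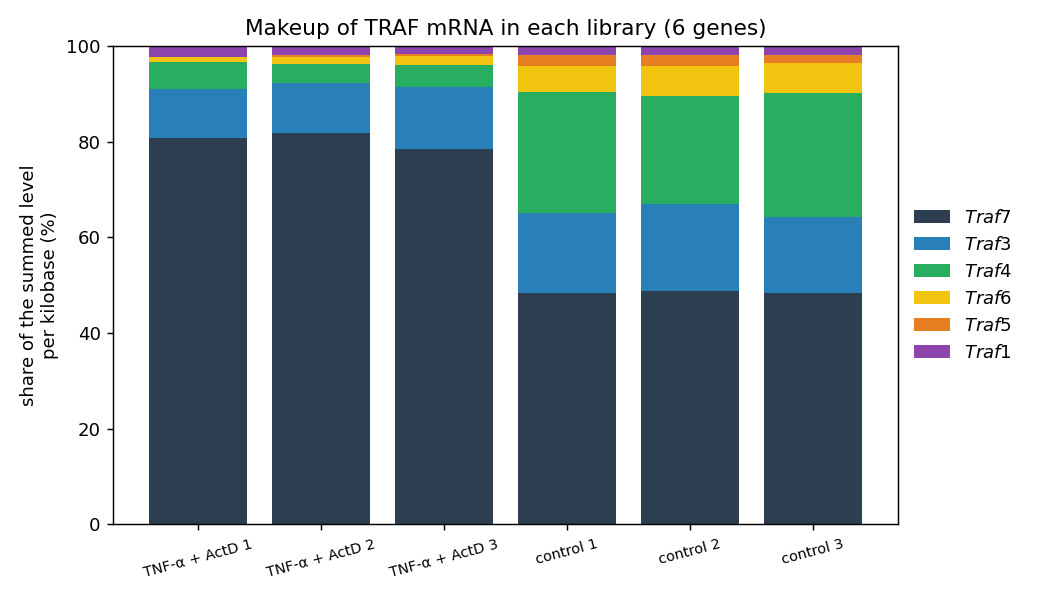
Share of each of 6 TRAF genes in their summed level (counts per kilobase of deposited gene length), for each treated library (left) and each control library (right). Traf7 makes up 78.6% to 81.8% in treated libraries and 48.4% to 48.8% in controls, and Traf4 makes up 4.0% to 5.6% in treated libraries and 22.6% to 25.9% in controls.

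The shares of TRAF mRNA did not overlap between the groups for 5 of the 6 genes. In CPM, 77.9% of all tested genes did not overlap. Shares within a library do not depend on the scaling factor, but they have a fixed total, so the 5 are not separate results. Of the level per kilobase summed over the 6 TRAF genes, Traf7 made up 80.4% ± 1.6 in treated libraries and 48.5% ± 0.21 in controls (SD, n = 3 each; exact permutation p = 0.1). Traf4 made up 4.70% ± 0.80 in treated libraries and 24.6% ± 1.8 in controls. Traf3 was at 11.2% ± 1.4 in treated libraries and 16.9% ± 1.2 in controls, while Traf1 held 1.99% ± 0.30 and 1.91% ± 0.07 of the sum (exact permutation p = 0.7). With annotated transcript lengths the share of Traf7 was 85.5% in treated libraries and 56.2% in controls, and with Traf2, the remaining member of the family, added to the sum it was 76.3% and 40.5%. Traf2 itself, the gene of an adaptor in the TNF receptor complex, had a log2 fold change of −1.78 ± 0.24 (edgeR adjusted p = 5.89e-05). The sum over the 6 genes had no direction that held across scales: it was 73.0 ± 12.1 in treated libraries and 222 ± 2.1 in controls on a TPM-like scale, in which the per-kilobase levels of each library have the same total (log2 ratio −1.61), but 58.0 ± 2.5 and 53.7 ± 5.4 TMM-scaled CPM per kilobase (0.11).

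The order of levels differed between the groups. Per kilobase of deposited length, on the TMM-scaled CPM scale, treated cells ran from Traf7 (46.6) through Traf3 (6.48), Traf4 (2.72), Tank (1.50), Traf1 (1.15), Traf6 (0.899), Tbk1 (0.724) and Ikbke (0.407) to Traf5 (0.126). Control cells ran from Traf7 (26.0) through Traf4 (13.3), Tbk1 (10.9), Traf3 (9.06), Tank (3.98), Traf6 (3.17), Traf5 (1.14) and Traf1 (1.02) to Ikbke (0.540). In treated cells, neighbours in the stretch from Tank to Ikbke overlapped in range, so their order is not resolved. In controls the overlapping neighbours were Traf4 with Tbk1, Tbk1 with Traf3, Tank with Traf6, and Traf5 with Traf1. Deposited lengths exceed those of the transcripts with the longest coding sequence by factors from 1.04 (Traf3) to 3.02 (Tank), so orders shift with the length used: by transcript length Tank came ahead of Traf4 in treated cells, with overlapping ranges.

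**Figure D3:**
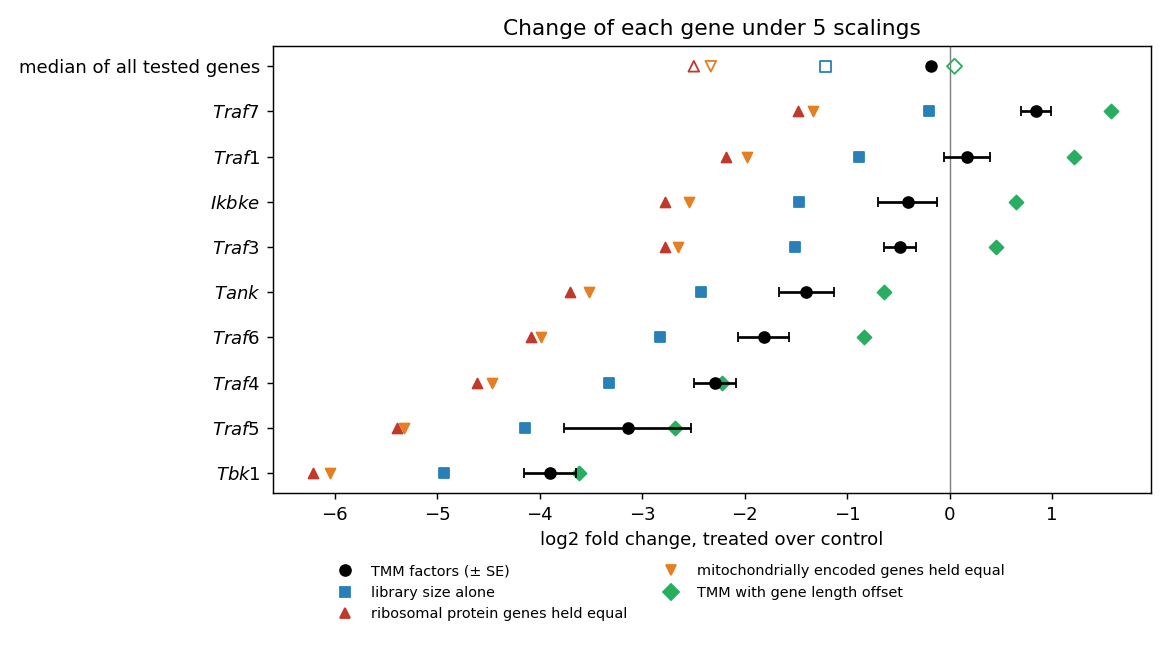
Log2 fold change (treated over control) of each gene and the median of all tested genes (top), under 5 scalings; black points carry the SE. Tbk1, Traf5, Traf4, Traf6 and Tank lie below 0 under every scaling drawn, while Traf3 and Ikbke turn positive with the gene length offset and Traf7 and Traf1 turn negative under the other 3 scalings that replace TMM (library size, ribosomal protein genes, mitochondrial transcripts).

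Direction on the whole-transcriptome scale depended on scaling for Traf7, Traf1, Traf3 and Ikbke. The median change of all tested genes was −1.21 with library size as the only factor, −2.50 with ribosomal protein genes set equal between groups and −2.33 with mitochondrial transcripts set equal. Called genes split into 46.3% higher with TMM factors and 22.3%, 2.64% and 3.13% higher with those scalings. Called lower were 8, 9 and 9 of the 9 genes, against 59.6%, 81.4% and 77.8% of all tested genes, and called higher were 0, 0 and 0, against 17.1%, 2.2% and 2.51%. With TMM factors Traf7 stood at 1.02 and Tbk1 at −3.72 once the all-gene median was subtracted. Amounts per cell were not measured, so fewer cells and less RNA per cell cannot be told apart.

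Longer genes had lower changes across the transcriptome, with a median of 1.78 in the shortest of 10 classes of deposited length and −1.27 in the longest. Among genes of its own length class, Tbk1 (3910 bases) lay at percentile 2.34 of changes, Traf5 at 5.49 and Traf4 (3292 bases) at 14.0. By deposited length these are also the 3 shortest genes of the 9. By the transcript with the longest coding sequence they are not, with 3024 bases for Tbk1 and 2018 for Tank. Traf6 and Tank lay at percentiles 32.0 and 36.0. Traf3, Ikbke, Traf1 and Traf7 lay at percentiles 65.3, 67.3, 77.8 and 82.4, above the middle of genes of like length. With the length offset 4 of the 9 genes were lower and 3 higher (Traf1, Traf3 and Traf7), against 33.2% and 35.4% of all tested genes.

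Features of the annotated transcripts were taken from GENCODE, whose coordinates match the deposited table for all 9 genes. Tbk1 and Traf7, at opposite ends of the changes, both have 21 exons, and neither has the AU-rich pentamer ATTTA in the 3′ untranslated region of the transcript with the longest coding sequence. That pentamer was found in 63.7% of tested genes with a coding transcript. Traf6 had 11 copies in 4173 bases of 3′ untranslated region, which put it at percentile 96.8 of tested genes. Traf1, Traf3 and Tank had 3 copies each, while Traf5 had 0 in an annotated region of 3 bases. GC content of the transcript ran from 38.5% in Tank, at percentile 1.8 of tested genes, to 59.5% in Traf4, at percentile 93.7.

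**Figure D4:**
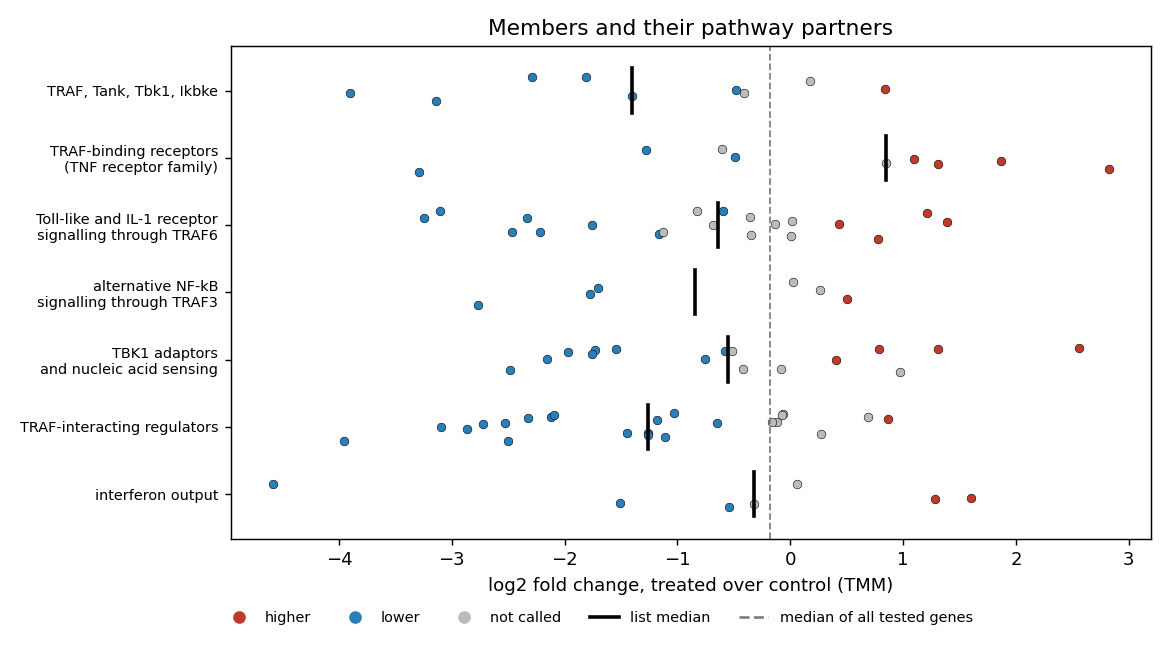
Log2 fold change (treated over control, TMM scale) of the 9 genes and of 6 lists of partner genes, 1 point per tested gene, coloured by edgeR call at an adjusted p of 0.05. Black bars are list medians and the dashed line is the median of all tested genes (−0.18). The receptor list has a median of 0.84 and the list of TRAF-interacting regulators −1.26.

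Receptors that bind TRAFs went both ways. Of 9 tested receptors of the TNF receptor family, 4 rose and 3 fell (44.4% and 33.3%), against 34.6% and 40.2% of all tested genes, and the median log2 fold change was 0.84. Another 10 of the 19 listed had too few counts. With the gene length offset 2 were higher and 2 lower. Tnfrsf9, for the costimulatory receptor 4-1BB, was at 9.77 ± 1.50 CPM in treated cells and 1.37 ± 0.35 CPM in controls, and Tnfrsf14, the herpesvirus entry mediator gene, rose by 1.87 ± 0.56. Counts of Tnfrsf14 were low and uneven, with 34, 17 and 10 in treated libraries against 10, 11 and 14 in controls. In CPM these were 3.00, 1.50 and 0.763 against 0.414, 0.450 and 0.553. Tnfrsf1b, the gene of TNF receptor 2, fell by 3.29 ± 0.32 on the log2 scale, and Ltbr, the lymphotoxin β receptor gene, by 1.28 ± 0.20 (edgeR adjusted p at most 0.0105 for these 4). By library size alone 1 receptor was called higher, and 0 were with either gene class (ribosomal protein or mitochondrial) set equal.

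In the pathway through TRAF6, 8 of 20 tested genes fell and 4 rose (40% and 20%), against 40.2% and 34.6% of all tested genes. Tab1, whose product activates the kinase TAK1, was at 4.39 ± 1.03 CPM in treated cells and 37.9 ± 5.0 CPM in controls, and Tlr5, the flagellin receptor gene, changed by −3.25 ± 0.39. Myd88, the adaptor of most Toll-like receptors, rose by 1.21 ± 0.17 and Tlr2 by 1.39 ± 0.28; by library size alone no gene of this list was called higher. Of 6 tested genes of the alternative NF-κB pathway that TRAF3 restrains, 3 fell and 1 rose (50% and 16.7%), against 40.2% and 34.6% of all tested genes. Map3k14, the gene of the kinase NIK, was at 3.37 ± 1.25 CPM in treated cells and 23.2 ± 0.06 CPM in controls. Nfkb2, for the p100 precursor, rose by 0.51 ± 0.17 (edgeR adjusted p = 0.0176). That rise was not called with library size as the only factor, with no filter, or when control replicate 2 or 3 was left out, and Nfkb2 was called lower with ribosomal protein genes or mitochondrial transcripts set equal.

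Of 16 tested partners of TBK1 and sensors upstream of it, 8 were lower and 4 higher (50% and 25%), against 40.2% and 34.6% of all tested genes. With the stricter filter 6 were lower and 5 higher, against 5114 lower and 4414 higher of all 12346 genes tested. A gene length offset with a replicate block gave 6 lower and 6 higher, against 4479 lower and 4708 higher of all 13290. Mavs, the adaptor of cytosolic RNA sensors, was at 8.54 ± 0.91 CPM in treated cells and 38.2 ± 5.7 CPM in controls, and Mb21d1, the gene of the DNA sensor cGAS, fell by 1.97 ± 0.34. The largest called rises in this list were 2.56 ± 0.45 for Irf7 and 1.31 ± 0.34 for Dhx58. By library size alone 1 gene of this list was called higher, and 0 were with either gene class set equal. Of the scaffold genes that share a role with Tank, Azi2 (the NAP1 gene) had a log2 fold change of −1.54 (called lower) and Tbkbp1 (the SINTBAD gene) of −0.08 (edgeR adjusted p = 0.764).

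Regulators that interact with TRAFs had 16 of 23 tested genes lower and 1 higher, with a median of −1.26. These are 69.6% and 4.35% of the list, against 40.2% and 34.6% of all tested genes. With the gene length offset 13 were lower and 4 higher. Usp25, a deubiquitinase gene, was at 1.95 ± 0.57 CPM in treated cells and 16.9 ± 3.9 CPM in controls. Map3k3, the gene of MEKK3, the partner of TRAF7, was at 6.41 ± 1.85 CPM in treated cells and 46.8 ± 4.3 CPM in controls, a log2 fold change of −2.86 ± 0.24 (edgeR adjusted p = 1.68e-06). The one called higher was Sqstm1, for the autophagy receptor p62 that binds TRAF6, at 816 ± 79 CPM in treated cells and 447 ± 70 CPM in controls, a direction not kept as a call by library size alone. With mitochondrial transcripts set equal, all 23 tested genes of this list, Sqstm1 among them, were called lower, against 77.8% of all tested genes.

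Genes most like the extremes were found by the Euclidean distance between mean-centred log2 CPM over the 6 libraries, among 9154 protein-coding genes with a mean of at least 5 CPM. The nearest to Traf7 were Ppp5c, Vcp and Ap2b1, at distances from 0.0916 to 0.104. The nearest to Tbk1 were Abcd3, Gtf3c3 and Tanc1, at distances from 0.268 to 0.350.

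Library totals ran from 16448477 to 17705511 counts in treated libraries and from 16056207 to 18036322 in controls, so total counts were close to even. TMM factors were 0.640, 0.659 and 0.797 in treated libraries and 1.34, 1.53 and 1.45 in controls. Equal counts thus give a higher CPM in a treated library. Genes with a count numbered 15705, 17688 and 18849 in treated libraries and 19219, 20116 and 19688 in controls. Of the markers, 8 of 9 fibroblast markers had a mean of at least 1 CPM, and Thy1 had 0 treated and 6 control counts. The summed level of the 9, in which Vim and Col1a2 weigh most, was 20403 to 23828 CPM in treated libraries and 6320 to 8179 CPM in controls, while Pdgfrb was lower, at 39.7 ± 1.2 CPM in treated cells and 75.7 ± 8.9 CPM in controls. The summed level of 7 leukocyte markers was 24.4 to 32.6 CPM in treated libraries and 2.41 to 2.92 CPM in controls, of which Cd68 made up 25.7 and 1.85 CPM on average, while the defining marker Ptprc had 0 and 1 counts. Epcam and Kdr, which mark epithelial and endothelial cells, had no count. The part of these marker differences in the results was not tested.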

How the data were processed

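The 6 libraries were grouped by sample title. Whole-number gene counts were deposited by the authors, and per the submitters' processing notes, which give no role or order, GRCm38 and mm10 are listed as builds, and DESeq2 1.24.0, HISAT2 2.1.0 and RSEM 1.3.1 as tools. The deposited FPKM table, made by the authors with the deposited gene length (in bases, per the file headers), was used in alternatives. Over 10651 genes its median log2 fold change was 0.0057 (pseudocount of 1), against −0.18 with TMM factors and −1.21 by library size alone. Its scale is thus closer to TMM than to library size, and it is not a separate check of scaling. Strand use and the handling of shared reads are not given in the sources used here.

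Genes were kept with edgeR's filterByExpr (13290 of 24708 with a count) and tested with edgeR 4.0.16 (TMM, glmQLFit robust, glmQLFTest) in R 4.3.3, with Benjamini-Hochberg adjustment over all tested genes. Standard errors were taken as log2 fold change over the square root of F. CPM values are TMM-scaled, and log2 CPM uses a prior count of 2. Pair ratios add 1 count and were tested with exact two-sided permutations over samples. Totals of 16056207 to 18036322 counts set the precision.

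The 9 genes, the partner lists and the tests were chosen with earlier results of these data known. Named genes are the 9, Traf2, and of each list up to 2 of the largest called rises and falls, given 1 CPM or more on average. Azi2, Tbkbp1 and the genes with no or few counts were named after their values were seen. Alternatives were other scalings, filters and tools (DESeq2 1.42.0, limma 3.58.1), FPKM with pseudocounts of 1 and 0.1, a replicate block, a gene length offset (lowess, span 0.3) and leaving out each library. Transcript lengths and Traf2 in the sum were added after seeing the data. Fits were tested on simulated data in which a small set of genes changed, evenly in both directions and without a trend by gene length. That setting differs from these data, so it says nothing on the choice of scaling. Figures used matplotlib 3.10.9 in Python 3.11.15.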

Additional observations from a re-analysis of the deposited data

How the results depend on the processing

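The falls of Tbk1, Traf4 and Traf6 kept their direction and their call under all 21 alternatives, and that of Traf5 under the 19 that could fit it (its mean FPKM is under 1, as is that of Ikbke). Members called higher, 1 with TMM factors, were 0 by library size alone, 0 with ribosomal protein genes set equal and 0 with mitochondrial transcripts set equal, and 3 with the gene length offset, with or without a replicate block. Traf1 turned to −0.88, −2.18 and −1.98 and Traf7 to −0.20, −1.48 and −1.33 with those scalings, in that order. With the gene length offset Traf3 turned to 0.45 and Ikbke to 0.64, or 0.47 and 0.65 with a replicate block as well. Of 80 tested partner genes, 40 (50%) were called lower with TMM factors, 63 by library size alone and 73 with either gene class set equal. Shares of all tested genes called lower were 40.2%, 59.6%, 81.4% (ribosomal protein genes) and 77.8% (mitochondrial transcripts) with these scalings. Partner genes called higher were 16 (20%), 2, 0 and 0, against 34.6%, 17.1%, 2.2% and 2.51% of all tested genes. The summed TRAF level, −1.61 on the TPM-like scale, turned to 0.11 with TMM-scaled counts per kilobase, 0.19 with deposited FPKM and 0.23 with transcript lengths; the cause was not tested. A replicate block alone left 6 members lower and 1 higher, against 5411 lower and 4450 higher of all 13290 tested genes. Same-numbered libraries had correlations of deviations of 0.22, −0.14 and 0.03, so the numbers were not taken as pairs. Leaving out 1 library gave 6 to 7 members lower and 1 higher. Over all 13622 to 13803 genes tested in those fits, 4928 to 5737 were lower and 4125 to 4564 higher. The low counts of Traf5 and Ikbke limit the precision of their changes.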

Other observations

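Genes downstream of TBK1 and IKKε in the interferon response were sparse in these cells. Of 16 listed interferon-linked genes, 7 could be tested, of which 2 were higher and 3 lower (28.6% and 42.9%), against 34.6% and 40.2% of all tested genes. Ifnb1, the interferon β gene, and the chemokine gene Ccl5 had 0 counts in all 6 libraries, which allows up to 3 counts over each group. Isg15, a ubiquitin-like modifier gene, was at 2.89 ± 0.82 CPM in treated cells and 0.951 ± 0.358 CPM in controls (log2 fold change 1.60 ± 0.43, edgeR adjusted p = 0.00564). Stat2, a transcription factor gene of interferon signalling, was at 11.8 ± 1.5 CPM in treated cells and 17.2 ± 2.1 CPM in controls, and was called lower. Ifit2 was uneven in treated cells, at 2.54 ± 2.13 CPM against 7.34 ± 1.85 CPM in controls, and was called lower (edgeR adjusted p = 0.0179). By library size alone none of the list was called higher and 5 were called lower.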
